A study of Saccharomyces cerevisiae with 24 samples.

Results

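The plasmid barcodes of the pyrimidine synthesis genes of Saccharomyces cerevisiae were followed through 10 generations of growth in salt. The genes were chosen by name: URA1, URA2, URA3, URA4, URA5, URA6, URA7, URA8, URA10 and FUR1, 10 genes in all. URA5 was known beforehand to be higher at generation 10 in all 4 strains, so its own change is given as a description without a test, whereas the other genes were taken from the pathway. Of the 10 genes, 8 had a row in the read count table of 4817 genes, and 5 of these had reads: URA1, URA4, URA5, URA6 and URA8. URA7, URA10 and FUR1 each had 1 row with 0 reads in all 24 libraries, and URA2 and URA3 had no row. Rows with 0 reads throughout made up 584 of the 4871 rows (11.99%). Each of the 5 genes with reads had 1 barcode, and all 5 passed the filter on low counts in every strain.

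Each strain carried the MoBY 2.0 library, a pool of barcoded high-copy plasmids in which every plasmid adds extra copies of 1 S288C gene together with the sequence that normally flanks it. A barcode that gains share over time marks a plasmid that does better than the rest of the library in that strain. The diploid strains were the laboratory strain BY4743 (lineage label Laboratory), the vineyard strain BC187 (Wine/European), NCYC3290 (West African) and the oak strain YPS128 (North American). Libraries were taken at generation 0, before growth, and at generation 10, in triplicate, which gave 8 groups of 3. The outgrowth was in rich YPD medium with 0.7 M NaCl and G418 at 200 mg/L, the drug that selects for the plasmid. BY4743 is homozygous for ura3Δ0, his3Δ1 and leu2Δ0 and heterozygous for lys2Δ0 and met15Δ0. Per the study, BY4743 holds more plasmid copies per haploid genome than the wild strains do, so gene dosage differs between them, and NCYC3290 and YPS128 are the more salt-sensitive strains.

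Pyrimidine nucleotides are built in yeast by a short linear pathway that ends in UMP, from which all other pyrimidine nucleotides are made. Ura2 makes carbamoyl aspartate, Ura4 closes it to dihydroorotate and Ura1 oxidises this to orotate. Ura5, and its minor isozyme Ura10, join orotate to phosphoribosyl pyrophosphate (PRPP), and Ura3 removes the carboxyl group to give UMP. Ura6 is the UMP kinase, and Ura7 and Ura8 are CTP synthases. Fur1 bypasses the pathway by joining external uracil to PRPP. Without Ura3, BY4743 cannot finish the pathway and depends on uracil from the medium.

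The inserts carry each gene with its native upstream sequence, and the transcription factor Ppr1, which responds to pathway intermediates, acts on several of these genes through a site made of the triplets CGG and CCG, in that order, with any 6 bases between them. The sites are shown because some measured genes hold one within 300 bases upstream of the start codon and others do not. The sequences of the inserts themselves were not examined. The 300 bases upstream of each start codon were searched in the S288C reference (RefSeq, build R64), on both strands at once since the motif is its own reverse complement. Of 6001 protein-coding genes, 77 (1.28%) held a match. URA1 held 2 matches, URA3 and URA4 held 1 each, and URA2, URA5, URA6, URA7, URA8, URA10 and FUR1 held none. Of the genes with reads, URA1 and URA4 thus held the motif and URA5, URA6 and URA8 did not. A match is a description of the sequence and not a measured binding site. The sites of the measured genes are printed 5′ to 3′ on the strand of the gene, with the fixed bases of the motif in capitals. Distances to the start codon count the bases after the second triplet, so they include the lower-case bases printed after it. The first URA1 site lies at chrXI:25000-25017 (plus strand), 200 bases before the start codon, the other at chrXI:25031-25048 (plus strand), 169 bases before it, and the URA4 site at chrXII:963652-963669 (plus strand), 118 bases before it.
URA1 site, upstream: cacCGGgctttgCCGaag
URA1 site, downstream: cttCGGcattcgCCGaaa
URA4 site: attCGGagaattCCGatg

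Depth differed between strains and bears on every value below. The 24 libraries held from 4615027 to 30699608 reads. Each library was scaled to the total over rows that exceeded 50000 reads in no library, which left out 25 rows, URA5 among them. Values called normalised reads below give reads for every 1000000 in this scaling total. The 25 rows held at most 1.05% of reads at generation 0 and between 1.14% and 4.14% at generation 10 in BY4743 and BC187. Their share at generation 10 was between 89.1% and 95.7% in NCYC3290 and between 83.5% and 91.8% in YPS128, which left as few as 501261 reads for all other rows. There, 1 read was worth 1.99 normalised reads, against 0.119 or less at generation 0. The median log2 fold change of all rows tested was -1.58 in NCYC3290 and -0.56 in YPS128, and it was 0.01 in BY4743 and -0.05 in BC187. Labels do not say whether replicates came from separate transformations. Per the study, transformed colonies were pooled and frozen, and the competitions were started from such stocks. P-values set each change against the spread between these samples.

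URA5 (YML106W, R64 chromosome XIII, 56773 to 57453, protein-coding) had more normalised reads at generation 10 than at generation 0 in each strain, by unequal amounts. In BY4743 its normalised reads were 405, 454 and 436 at generation 0 and 959, 1132 and 1086 at generation 10. In BC187 they were 102, 106 and 107 before growth and 1229, 2259 and 1845 after. The generations did not overlap in either strain, with the later one higher, which held for 27.4% of rows in BY4743 and 31.3% in BC187. The spread between replicates was wider in BC187 after growth (SD 518, n = 3) than before (SD 2.38).

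In NCYC3290 URA5 went from 322, 446 and 301 normalised reads to 1291185, 490942 and 949961. URA5 is not part of the scaling total, so a value above 1000000, as in replicate 1, means that URA5 alone drew more reads than all rows of that total together. Of all reads, URA5 held 0.0353% ± 0.0077 (SD, n = 3) at generation 0 in NCYC3290 and 5.97% ± 0.89 at generation 10. In YPS128 its normalised reads were 53.4, 43.2 and 39.7 at generation 0 and 188, 497 and 276 at generation 10, the lowest values of the 4 strains at both generations. The generations did not overlap in these strains either, with the later one higher, as for 3.45% of rows in NCYC3290 and 9.67% in YPS128. Since URA5 was chosen for this change, nothing is read from these shares. Of all reads in YPS128, URA5 held 0.0045% ± 0.0007 (SD, n = 3) before and 0.0041% ± 0.0036 after growth, so its higher value there is relative to the rows of the scaling total and not to the whole library.

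**Figure D1:**
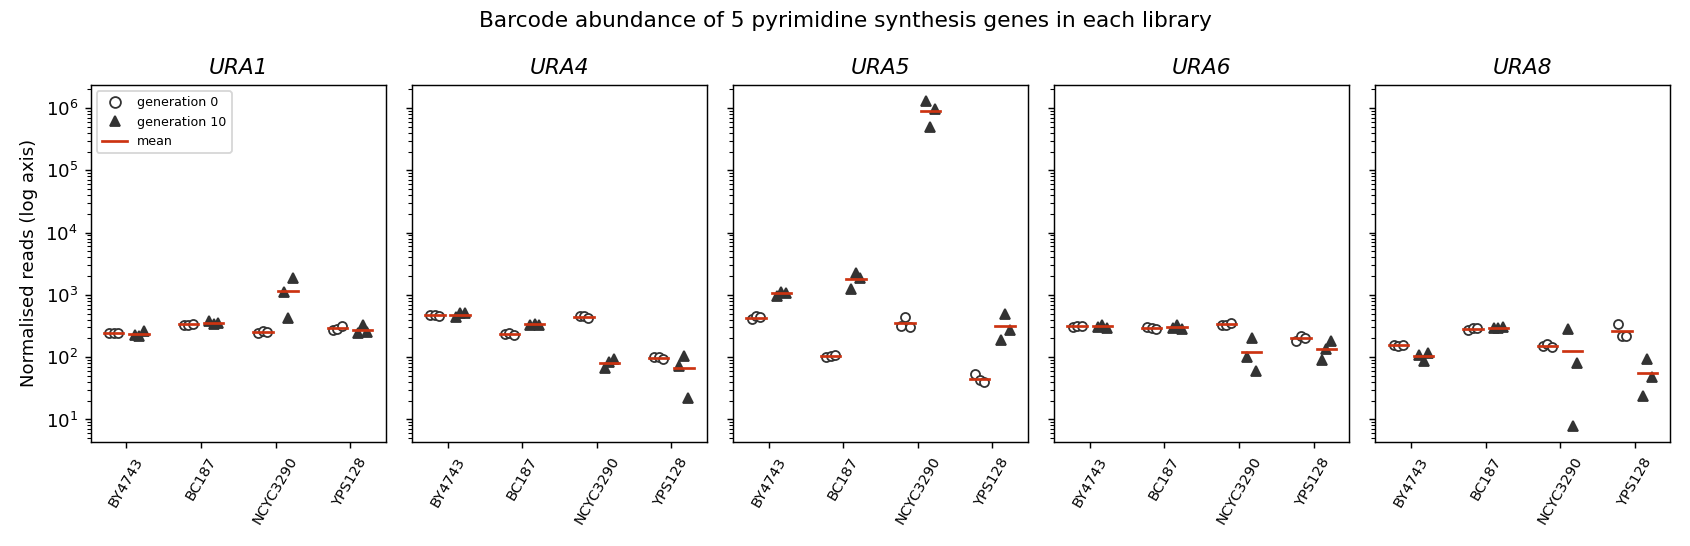
Normalised reads (vertical, log axis) of URA1, URA4, URA5, URA6 and URA8 in each of 24 libraries, by strain; open circles are generation 0, filled triangles generation 10 and red lines group means of 3. URA5 lies higher at generation 10 in every strain and reaches a mean of 910696 in NCYC3290, while the other genes stay between 7.98 and 1881.

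The fitted log2 fold change of URA5 was 11.32 (SE 0.90) in NCYC3290, 4.08 (SE 0.21) in BC187, 2.82 (SE 0.46) in YPS128 and 1.30 (SE 0.08) in BY4743. Replicate fitness scores, the log2 ratio of each generation 10 library to the mean of its strain at generation 0 with a pseudocount of 1, kept the same order. The lowest and highest scores were 10.4 and 11.8 in NCYC3290, 3.54 and 4.41 in BC187, 2.03 and 3.42 in YPS128, and 1.15 and 1.39 in BY4743. No neighbours in that order overlapped, though the lowest BC187 replicate and the highest YPS128 replicate were close. Among all rows tested URA5 took rank 4 of 4171 from the top in NCYC3290, rank 4 of 4166 in BC187, rank 13 of 4186 in BY4743 and rank 53 of 4157 in YPS128. The starting level also differed between strains. Before growth URA5 averaged 432 normalised reads in BY4743 and 357 in NCYC3290, against 105 in BC187 and 45.4 in YPS128, and these 4 ranges did not overlap except that the highest NCYC3290 library reached into the BY4743 range.

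The size of the change depended on library scaling in NCYC3290 and YPS128. With the library size taken from all reads, the log2 fold change of URA5 was 7.40 in NCYC3290 and -0.14 in YPS128, below 0 in place of above it. TMM factors gave 13.43 in NCYC3290 and 3.39 in YPS128. Under TMM, all reads and DESeq2 the value was 1.29 each time in BY4743 and between 4.03 and 4.13 in BC187. With all reads the median of all rows shifted by -3.78 in NCYC3290 and -3.09 in YPS128, while no scaling shifted it by more than 0.05 in the other strains.

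**Figure D2:**
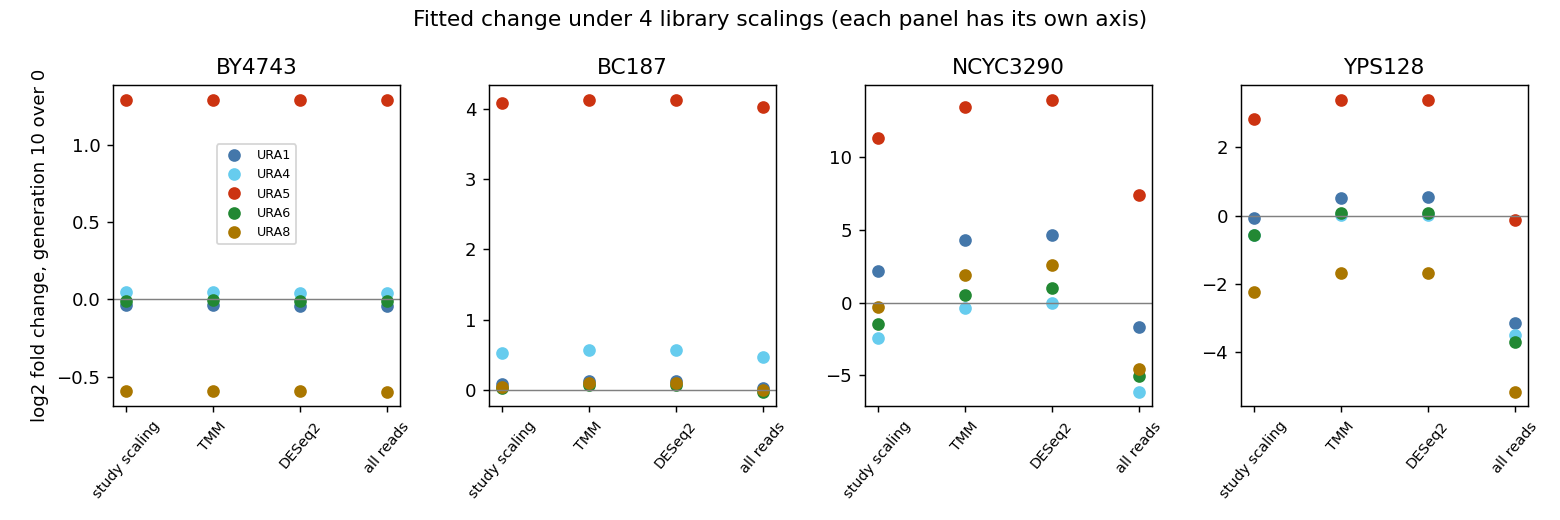
Fitted log2 fold change, generation 10 over generation 0 (vertical), of the 5 genes under 4 ways to scale the libraries (horizontal; study scaling is the total without the 25 dominant rows), 1 panel per strain with its own axis. In BY4743 and BC187 the points barely move, whereas in YPS128 URA5 drops from 2.82 to -0.14 when all reads are used; URA5 stays the highest of the 5 genes under each scaling.

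Ratios of reads between members of the same library need no scaling. The reads of URA5 over the summed reads of URA1, URA4, URA6 and URA8 were between 0.343 and 0.381 at generation 0 in BY4743 and between 0.885 and 0.984 at generation 10. In BC187 the ratio lay between 0.0888 and 0.0920 before growth and between 0.946 and 1.74 after. The YPS128 libraries lay between 0.0481 and 0.0593 at first and between 0.433 and 0.750 later. NCYC3290 started between 0.255 and 0.371 and ended between 448 and 823. The generations did not overlap in any strain, and the change of the mean log2 ratio was 2134-fold in NCYC3290, 14.7-fold in BC187, 10.6-fold in YPS128 and 2.55-fold in BY4743. These ratios use the change for which URA5 was chosen and are given as a description.

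**Figure D3:**
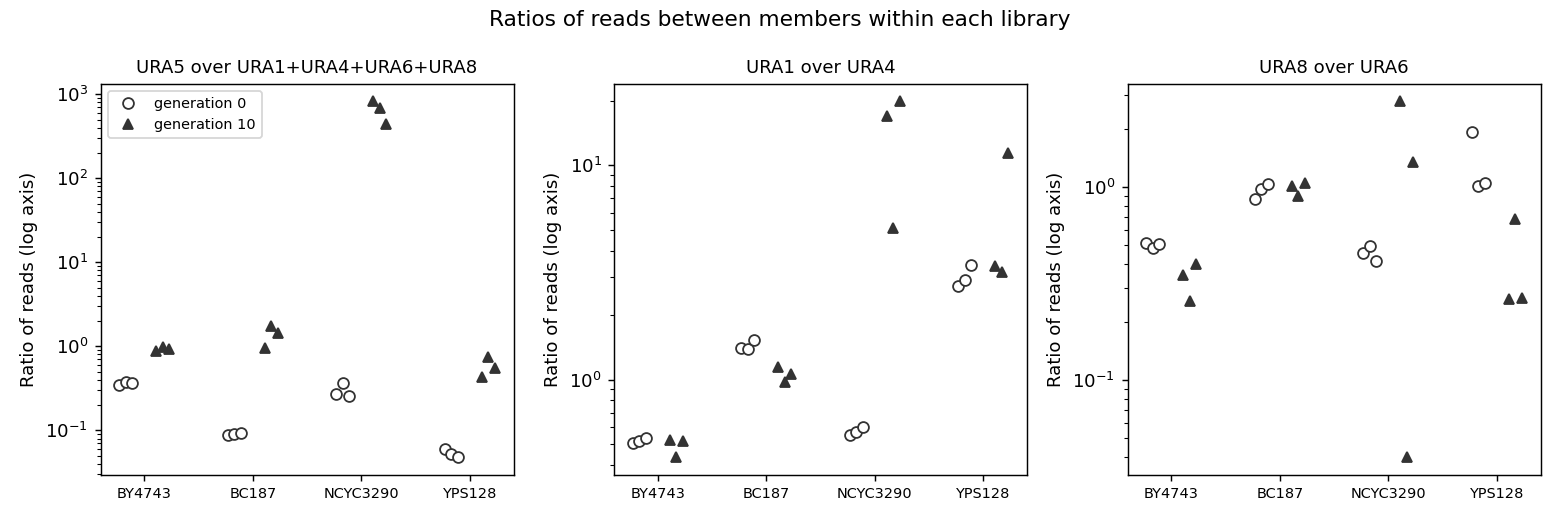
Ratios of reads within each library (vertical, log axis) by strain, with open circles for generation 0 and filled triangles for generation 10. The left panel shows URA5 over the other 4 genes, higher at generation 10 in all 4 strains, the middle panel URA1 over URA4, which parted most in NCYC3290 (5.10 to 19.9 against 0.550 to 0.602), and the right panel URA8 over URA6.

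In each strain 1 of the other 4 genes passed an FDR (Benjamini-Hochberg adjusted p over all rows tested, edgeR quasi-likelihood test) of 0.05 and 3 did not. URA8 passed as lower in BY4743, where 19.5% of all rows tested were called lower. URA4 rose in BC187, where 28.5% were called higher. URA4 passed as lower in NCYC3290, where 26.1% were called lower, and URA8 in YPS128, where 8.47% were. None of the 4 was called in the other direction (edgeR), against 18.2% of rows called higher in BY4743, 38.1% lower in BC187, 4.11% higher in YPS128 and 1.89% higher in NCYC3290. At an unadjusted p under 0.05 this count was 1 in NCYC3290, for URA1, and 0 in the other strains. Of all rows, 117 of 4171 were higher in NCYC3290 and 350 of 4157 in YPS128 at that threshold. In BY4743 1003 of 4186 rows were higher and in BC187 1645 of 4166 lower. At an FDR of 0.05 DESeq2 gave the same counts for the 4 genes except 1 higher and 0 lower in NCYC3290. Shares of all rows under DESeq2 are not given. None of the 4 lay lower without overlap in BC187 either, where 40.8% of rows did. Their median log2 fold change was -0.88 in NCYC3290, -0.56 in YPS128, -0.02 in BY4743 and 0.06 in BC187, next to the medians of all rows given above. The calls in BY4743 and BC187 were lost in a joint fit of the 24 samples, which gives all strains 1 spread.

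URA4 (YLR420W, chromosome XII, 963785 to 964879), the dihydroorotase gene, was called higher in BC187 and lower in NCYC3290. In BC187 it had 237, 240 and 226 normalised reads before growth and 329, 346 and 334 after, a log2 fold change of 0.52 (SE 0.05, FDR 3.7e-05). In NCYC3290 it had 451, 456 and 425 before and 66.1, 83.8 and 94.7 after, a log2 fold change of -2.45 (SE 0.62, FDR 0.024). The generations did not overlap in either strain, as for 31.3% of rows (higher) in BC187 and 60% (lower) in NCYC3290. The NCYC3290 value differed from the median of all rows by -0.86 and was at percentile 34.6 of its strain. Its FDR was between 0.13 and 0.14 when any library of generation 0 was left out and 0.11 with a replicate block. Under TMM the value was -0.39 (FDR 0.72) and with DESeq2 -0.03 (FDR 0.97). In BY4743 URA4 had 473, 473 and 461 normalised reads before and 437, 511 and 505 after growth, which overlap (log2 fold change 0.05, FDR 0.61). Without generation 10 replicate 1 that value was 0.12 with an FDR of 0.026, and in the other fits that left out 1 library the FDR was between 0.69 and 0.94. In YPS128 the values were 101, 99.2 and 91.9 before and 72.8, 104 and 22.0 after, with an FDR of 0.55.

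URA1 (YKL216W, chromosome XI, 25215 to 26159), the dihydroorotate dehydrogenase gene, stood out in NCYC3290 but did not pass the test there. It had 248, 260 and 256 normalised reads before growth and 1117, 427 and 1881 after, so that every generation 10 library was above every generation 0 library, as in 3.45% of rows. The log2 fold change was 2.17 (SE 0.72, FDR 0.060), 3.75 above the median of all rows and rank 123 of 4171 from the top. Without generation 10 replicate 2, the shallowest library, it was 2.56 with an FDR of 0.0060. No other fit that left out 1 library passed. The FDR was between 0.23 and 0.24 without any 1 generation 0 library. It was 0.060 without generation 10 replicate 1 and 0.051 without replicate 3. With a replicate block the FDR was 0.19. The direction depended on scaling: the value was 4.26 under TMM (FDR 0.032), 4.61 with DESeq2 (FDR 4.2e-09) and -1.70 with all reads (FDR 0.048). In the joint fit it was 2.17 (FDR 2.3e-05). In the other strains the generations overlapped. URA1 had 240, 246 and 245 normalised reads before and 228, 222 and 261 after growth in BY4743 (log2 fold change -0.04, FDR 0.73). In BC187 it had 333, 334 and 344 before and 378, 337 and 354 after (0.08, FDR 0.23). In YPS128 it had 275, 289 and 314 before and 247, 330 and 250 after (-0.08, FDR 0.82).

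URA1 and URA4 encode adjacent enzymes of the pathway, and their plasmids parted in NCYC3290. The reads of URA1 over those of URA4 were 0.550, 0.569 and 0.602 at generation 0 and 16.9, 5.10 and 19.9 at generation 10. In BC187 the ratio went the other way, from 1.41, 1.39 and 1.52 to 1.15, 0.973 and 1.06. In BY4743 and YPS128 the generations overlapped, and the mean log2 ratio changed 0.942-fold and 1.66-fold. With 3 libraries against 3, an exact two-sided permutation test of 1 ratio cannot go below p = 0.1, so none was run. Of single rows in NCYC3290, 60% lay lower and 3.45% higher at generation 10 without overlap. The share of gene pairs that part in this way was not computed, so the parting is not read as particular to URA1 and URA4.

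URA6 (YKL024C, chromosome XI, 392526 to 393140), which encodes the essential UMP kinase, varied little in BY4743 and BC187. Its log2 fold change was -0.01 in BY4743 (SE 0.06, FDR 0.93) and 0.02 in BC187 (SE 0.06, FDR 0.79), with all 12 libraries of these strains between 287 and 332 normalised reads. In NCYC3290 it had 328, 326 and 354 normalised reads before growth and 102, 200 and 61.0 after (log2 fold change -1.48, FDR 0.17), 0.11 above the median of all rows. Without generation 10 replicate 2 the value was -2.04 with an FDR of 0.018. In the other fits that left out 1 library the FDR was between 0.081 and 0.41. It was 0.30 with a replicate block and 0.001 in the joint fit. The value was 0.55 under TMM (FDR 0.63), 0.98 with DESeq2 (FDR 0.26) and -5.04 with all reads (FDR 0.0029). In YPS128 it had 180, 215 and 205 before and 90.7, 136 and 179 after (log2 fold change -0.57, FDR 0.31), against a median of -0.56 for all rows. The generations did not overlap in these 2 strains, the highest YPS128 value after growth falling just short of the lowest before it, as for 60% of rows in NCYC3290 and 45.1% in YPS128.

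URA8 (YJR103W, chromosome X, 620754 to 622490), the minor CTP synthase gene, was called lower in BY4743 and in YPS128. In BY4743 it had 158, 154 and 159 normalised reads before growth and 108, 85.3 and 118 after, a log2 fold change of -0.59 (SE 0.13, FDR 0.010), with every later library below every earlier one, as in 28.7% of rows. This call held in all 6 fits that left out 1 library, with an FDR between 0.0082 and 0.048. In YPS128 it had 345, 219 and 215 before and 23.8, 93.8 and 47.6 after, a log2 fold change of -2.23 (SE 0.57, FDR 0.041). This differed from the median of all rows by -1.67. The YPS128 call was lost in 5 of 6 fits that left out 1 library, in which the value ranged from -2.87 to -1.87 over the 6; it held only without generation 10 replicate 2 (FDR 0.0036). Under TMM its FDR was 0.060. In BC187 the generations overlapped, with 271, 290 and 299 before and 298, 292 and 300 after (0.05, FDR 0.47). In NCYC3290 its 3 generation 10 libraries, at 284, 7.98 and 81.9 normalised reads, spread on both sides of the 150, 161 and 146 before growth (-0.28, FDR 0.87), and the lowest of them rests on 4 reads. The value was 1.90 under TMM (FDR 0.31), 2.58 with DESeq2 (FDR 0.053) and -4.54 with all reads (FDR 0.0073), and -1.72 without generation 10 replicate 1 (FDR 0.22).

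**Figure D4:**
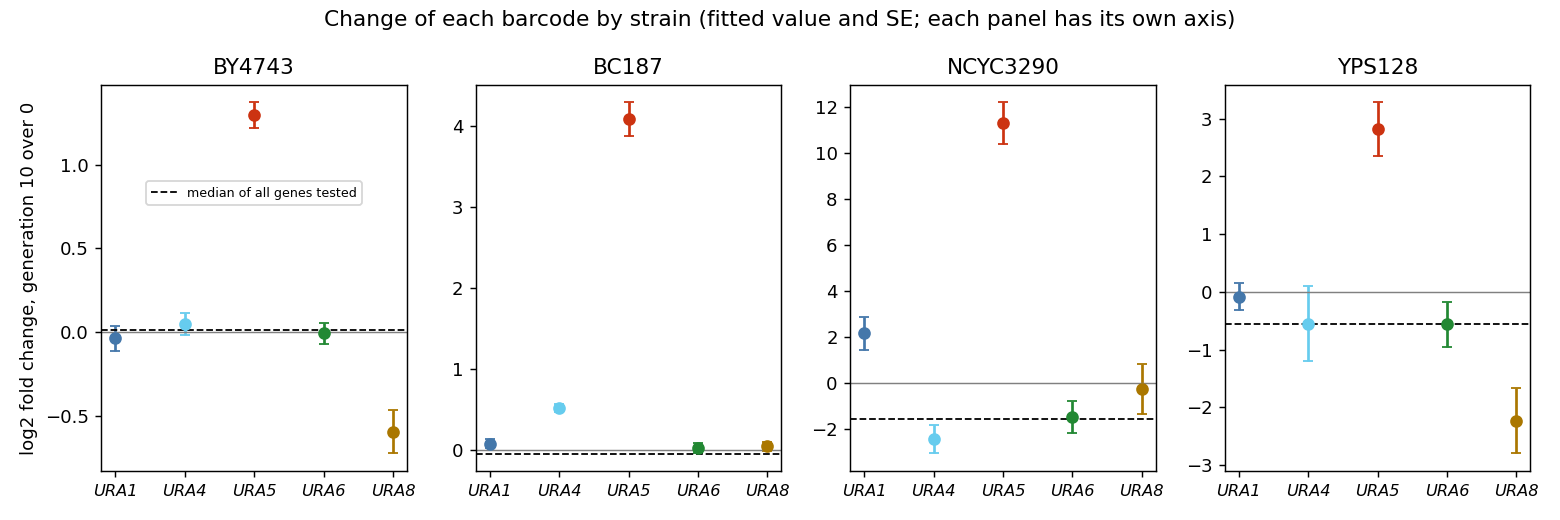
Fitted log2 fold change, generation 10 over generation 0, with its SE (edgeR, 3 libraries per generation) for each gene, 1 panel per strain with its own vertical axis; the dashed line is the median of all rows tested in the strain. URA5 lies above the line everywhere, URA8 lies below it in BY4743 and YPS128, and URA1 lies 3.75 above it in NCYC3290.

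Whether the change of a gene differed between strains was tested on the 4 genes other than URA5. Between BC187 and BY4743, the strains with small replicate spread (biological coefficient of variation 0.110 and 0.126), 2 of the 4 differed in a fit of their 12 samples, where 44.7% of all rows did. The log2 fold change of URA4 was higher in BC187 than in BY4743 by 0.47 (SE 0.08, FDR 0.00054). That of URA8 was higher by 0.64 (SE 0.14, FDR 0.0022), with 0.05 in BC187 and a fall of -0.59 in BY4743. URA1 (0.12, SE 0.09, FDR 0.34) and URA6 (0.03, SE 0.09, FDR 0.82) did not pass, although URA1 did under TMM (0.25, FDR 0.041). The calls of URA4 and URA8 held in all 12 fits that left out 1 library. Over all 4 strains in 1 fit of 24 samples, 3 of the 4 differed, where 41.3% of all rows did: URA1 (FDR 0.0013), URA4 (FDR 0.00043) and URA6 (FDR 0.044), and not URA8 (FDR 0.17). This fit gives all strains 1 spread, although the coefficient of variation was 0.855 in NCYC3290 and 0.539 in YPS128. The call of URA6 was lost in 18 of 24 fits that left out 1 library, and its FDR was 0.92 under TMM. URA4 was lost under TMM (FDR 0.20) and DESeq2 (FDR 0.51), under which URA8 passed instead (FDR 0.048 and 0.0026).

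The genes next to URA5 on the chromosome were examined because inserts carry flanking sequence. In chromosome coordinates PML39 (YML107C, 55265 to 56269) lies 503 bases to the left of URA5 and SEC65 (YML105C, 57866 to 58687) 412 bases to its right. PML39, which acts in nuclear retention of unspliced mRNA, rose in BY4743 by 0.37 (SE 0.09, FDR 0.014), a call lost in 2 of 6 fits that left out 1 library (FDR 0.052 and 0.055, without generation 0 replicate 2 or 3). It was not called in BC187 (0.07, FDR 0.41), NCYC3290 (-0.52, FDR 0.83) or YPS128 (-0.71, FDR 0.47). The NCYC3290 libraries at generation 10 held 679, 21.9 and 4.28 normalised reads of PML39, and without replicate 1 the value was -4.79 (FDR 0.014), while under TMM it was 1.70 (FDR 0.50). In the other NCYC3290 fits that left out 1 library the FDR of PML39 was between 0.88 and 0.99. SEC65, a subunit of the signal recognition particle, fell in NCYC3290 (log2 fold change -3.52, SE 0.68, FDR 0.0083), where its 3 generation 10 libraries held 3, 3 and 4 reads. That value was -1.51 under TMM (FDR 0.11) and -1.37 with DESeq2 (FDR 0.020). SEC65 was not called in BY4743 (-0.05, FDR 0.83), BC187 (0.07, FDR 0.65) or YPS128 (-0.69, FDR 0.46). From the top, PML39 took rank 423 of 4186 in BY4743, rank 1666 of 4166 in BC187, rank 1163 of 4171 in NCYC3290 and rank 2284 of 4157 in YPS128. SEC65 took rank 2441, rank 1672, rank 3304 and rank 2260 in the same order.

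A wider list of 35 genes around the pathway was followed next: carbamoyl phosphate and PRPP synthesis, the regulator PPR1, uptake and salvage, nucleotidases, deoxynucleotide synthesis and the other phosphoribosyltransferases, the enzyme class to which Ura5 belongs. Of these, 24 genes had reads in 25 rows, 6 had only 0 reads and 5 had no row. The uptake and salvage genes were nearly all unmeasured, with 4 of 7 at 0 reads (FUR4, FUI1, FCY1 and URK1), 2 without a row and 1, the uridine hydrolase gene URH1, with reads. In BC187 10 of 25 rows were called higher and 8 lower, where 28.5% and 38.1% of all rows were. In BY4743 5 were higher and 4 lower, against 18.2% and 19.5% of all rows. NCYC3290 had 0 higher and 7 lower, against 1.89% and 26.1%, and YPS128 had 2 higher and 0 lower, against 4.11% and 8.47%. None of these counts is read as particular to the list. The median log2 fold change of the list was 0.03 in BC187, 0.08 in BY4743, -1.79 in NCYC3290 and -0.50 in YPS128, next to those of all rows given above. The counts of 0 (edgeR) were 1 higher in NCYC3290 and 4 lower in YPS128 at an unadjusted p under 0.05. Of all rows, 117 of 4171 were higher in NCYC3290 and 1138 of 4157 lower in YPS128 at that threshold. At an FDR of 0.05 the higher count in NCYC3290 was 2 under TMM and 7 with DESeq2, for which shares of all rows are not given.

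PRPP is the second substrate of Ura5, and the 5 PRPP synthetase genes PRS1 to PRS5 are given because of it. In NCYC3290 3 of 5 fell and 0 rose, in BC187 3 fell and 2 rose, and in YPS128 none was called, next to the shares of all rows just given. In BY4743 PRS1 alone was called lower (-0.47, FDR 0.028), a call lost in 4 of 6 fits that left out 1 library, with an FDR of up to 0.096. PRS1 was also among those that fell in BC187 (-0.31, FDR 0.013). PRS1 had the largest called fall of the list in NCYC3290, from 128, 139 and 119 normalised reads to 4.51, 5.99 and 1.60 (log2 fold change -5.08, SE 0.85, FDR 0.0066), on 6, 3 and 3 reads after growth. Of the 8 other phosphoribosyltransferases, 2 rose and 1 fell in BY4743, 3 rose and 2 fell in BC187, 2 fell in NCYC3290 and 2 rose in YPS128, which are likewise to be read against those shares. Among them HPT1, which salvages hypoxanthine and guanine, rose in BY4743 by 0.38 (SE 0.06, FDR 0.0022), the largest called rise of the list there. It was also called higher in BC187 (0.42, FDR 0.00016). HPT1 was not called in NCYC3290 (-1.80, FDR 0.063) or YPS128 (-0.75, FDR 0.086). TRP4, of tryptophan synthesis, was the largest called rise in YPS128, with 254, 285 and 273 normalised reads before and 897, 871 and 1997 after growth (2.21, SE 0.37, FDR 0.014). That call was lost without any 1 of the generation 0 libraries (FDR between 0.072 and 0.088), and the value became -1.04 with all reads (FDR 0.023).

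RNR2, which encodes a small subunit of ribonucleotide reductase, had the largest called fall of the list in BY4743 and in BC187. It went from 340, 282 and 293 normalised reads to 96.0, 95.7 and 90.6 in BY4743 (-1.70, SE 0.09, FDR 1.4e-05). In BC187 it went from 31.4, 37.9 and 46.4 to 4.18, 4.40 and 8.93 (-2.73, SE 0.32, FDR 9.9e-05). URH1 had the largest called rise in BC187, 0.62 (SE 0.05, FDR 8.3e-06), and was not called in BY4743 (-0.12, FDR 0.17). The regulator gene PPR1 had a log2 fold change of -1.05 in BY4743 (SE 0.21, FDR 0.0074) and was not called in BC187 (-0.36, FDR 0.25), YPS128 (-0.11, FDR 0.90) or NCYC3290 (0.78, FDR 0.72).

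The genes most like URA5 in pattern were found by the root-mean-square distance between their 12 replicate fitness scores and those of URA5, over 4139 other rows tested in all strains. The nearest was SIS2, an inhibitory subunit of the Ppz1 phosphatase, at a distance of 2.31 on the log2 scale. ATO2, a putative ammonium transporter gene, followed at 3.12, then the elongation factor gene ELF1 at 3.16, the transcription factor gene SOK2 at 3.18 and the GATA factor gene GAT1 at 3.40, against a median of 7.58 over all rows. In NCYC3290 the mean scores were 13.4 for SIS2, 7.03 for SOK2, 6.28 for ELF1, 6.16 for ATO2 and 5.05 for GAT1, against 11.2 for URA5. At generation 0 in NCYC3290 SIS2 had 115, 508 and 89.65 normalised reads. The mean of 237 behind its scores there thus rests largely on 1 library, replicate 2. In BC187 URA5 had a mean score of 4.03, SIS2 3.13, ATO2 2.11 and GAT1 1.47, while ELF1 (0.36) and SOK2 (-0.44) were lower. In BY4743 none of the 5 reached the 1.29 of URA5, the highest being SIS2 at 0.59. In YPS128, SIS2 (6.36) and ATO2 (5.10) were above URA5 (2.68). With a pseudocount of 10, 4 of the 5 were still among the nearest 5. The distances use the change for which URA5 was chosen, with its largest scores in NCYC3290, and are given as a description.

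**Figure D5:**
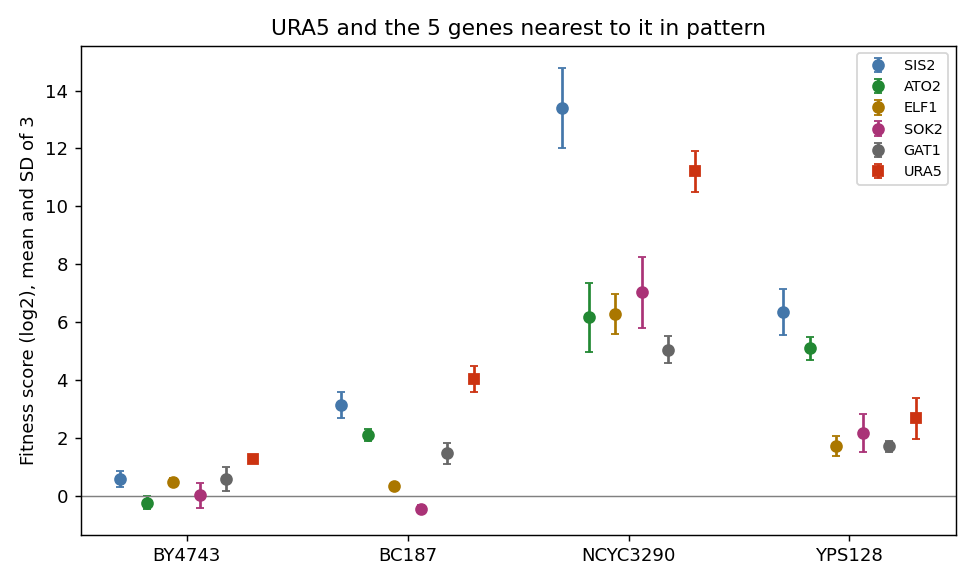
Fitness score (log2 ratio of a generation 10 library to the mean of its strain at generation 0, mean and SD of 3) of URA5 (red squares) and the 5 genes nearest to it, by strain. URA5 is the highest of the 6 in BY4743 and BC187, below SIS2 in NCYC3290 (11.2 against 13.4) and below SIS2 and ATO2 in YPS128.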

How the data were processed

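Plasmids were isolated by the authors from each of 24 samples, barcodes were amplified by PCR with indexed primers and sequenced as single-end reads. The authors deposited 1 table of whole-number read counts, not normalised, with a row for each barcode. The counting tool and its settings are not given in the sources used here. No molecular identifiers were used, so counting error is a lower limit on the error. Columns were matched to samples by title, with 0 columns left over.

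Counts were tested with edgeR 4.0.16 in R 4.3.3 (quasi-likelihood fit, filterByExpr with a minimum count of 10) within each strain on its 6 samples, after scaling to rows with at most 50000 reads in every library. P-values were adjusted over all rows tested (Benjamini-Hochberg), with a threshold of 0.05. The SE is the absolute log2 fold change over the square root of F. Strain differences were tested as strain-by-generation terms. DESeq2 1.42.0, TMM, all-read scaling, no filter, a joint fit, a replicate block and leaving out each library were alternatives. Fitness scores were computed in Python 3.11.15. Scripts were tested on simulated counts. For strain differences these had the same small spread in every strain, so they do not cover the unequal spreads of the 4-strain fit. Gene symbols and positions are from RefSeq R64. The count table holds no coordinates.

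All members, the genes flanking URA5, the 5 genes nearest to URA5 and, of the wider list, the largest called rise and fall in each strain are named by rule. PPR1 and the salvage genes at 0 reads were named after their values were seen. The members and lists were chosen with earlier results of these data known.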

Additional observations from a re-analysis of the deposited data

Results flagged for a closer look

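The change over 10 generations was tested for a difference between strains on the 4 genes other than URA5. Between BC187 and BY4743 the log2 fold change of URA4 was higher by 0.47 and that of URA8 by 0.64 in BC187 (edgeR quasi-likelihood test, FDR 0.00054 and 0.0022), so 2 of 4 differed, where 44.7% of all rows did. Over the 4 strains in 1 fit, URA1 (FDR 0.0013), URA4 (FDR 0.00043) and URA6 (FDR 0.044) differed, 3 of 4 where 41.3% of all rows did. URA6 was lost in 18 of 24 fits that left out 1 library and under TMM (FDR 0.92), and URA4 was lost under TMM (FDR 0.20) and DESeq2 (FDR 0.51). In each strain groups of 3 were too small for a test of single outlying libraries.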

How the results depend on the processing

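Of the 4 genes other than URA5, the counts called changed as follows. The joint fit of 24 samples gave 0 lower in BY4743 and 0 higher in BC187, each 1 otherwise. In NCYC3290 (0 higher and 1 lower) there was 1 higher under TMM, DESeq2 and the joint fit, and the lower count was 0 under TMM, DESeq2 and the replicate block, 2 in the joint fit and 4 with all reads. In YPS128 (1 lower) it was 0 under TMM and 4 with all reads. For the wider list, the higher count in BY4743 (5) was 3 with the replicate block and 0 in the joint fit, and the lower count (4) was 0 in the joint fit. In BC187 the joint fit gave 0 higher and 1 lower, against 10 and 8. In NCYC3290 (0 and 7), the higher count was 2 under TMM, 7 with DESeq2 and 2 in the joint fit, and the lower 1, 4 and 14, and 22 with all reads. In YPS128 (2 and 0), the higher count was 4 under TMM and DESeq2, 0 with all reads and 1 with the replicate block, and the lower 25 with all reads, 1 with the block and 3 in the joint fit. With all reads the median log2 fold change of all rows was -5.36 in NCYC3290 and -3.64 in YPS128. Shares of all rows called are not given for these alternatives or for fits with a library left out. None of these counts is therefore read as particular to the genes. URA5 in NCYC3290 (11.32) was 13.43 under TMM, 13.93 with DESeq2 and 7.40 with all reads, and in YPS128 (2.82) -0.14 with all reads. All reads also turned URA1 (-1.70, FDR 0.048) and URH1 (-3.10, FDR 0.0083) in NCYC3290 and TRP4 in YPS128 (-1.04, FDR 0.023), and DESeq2 turned TRP4 in NCYC3290 to 2.48 (FDR 0.020). Values that were not called and changed sign without passing the test were as follows. In NCYC3290, TMM and DESeq2 gave 0.55 and 0.98 for URA6, 1.90 and 2.58 for URA8, 1.70 and 2.51 for PML39 (DESeq2 gave no adjusted p) and 0.27 and 0.63 for HPT1, and TMM gave 2.05 for TRP4. In YPS128 they gave 0.52 and 0.53 for URA1, 0.0073 and 0.0050 for URA4, 0.068 and 0.081 for URA6, and 0.15 under both for URH1. In BC187 all reads gave -0.027 for URA6 and -0.021 for TRP4. Beyond the scalings, which set every value against another total, the cause of these moves was not tested.

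With each library left out in turn, the 4 genes gave 0 to 1 higher and 1 lower in BY4743, 1 higher and 0 lower in BC187, 0 to 1 higher and 0 to 2 lower in NCYC3290, and 0 higher and 0 to 1 lower in YPS128. The wider list gave 3 to 7 higher and 3 to 6 lower in BY4743, 9 to 11 and 6 to 8 in BC187, 0 to 3 and 2 to 12 in NCYC3290, and 0 to 3 and 0 to 5 in YPS128. URA5 ranged from 1.24 to 1.36 in BY4743, 3.87 to 4.29 in BC187, 10.98 to 11.62 in NCYC3290 and 2.35 to 3.09 in YPS128. Values that changed sign with 1 library left out ranged from -0.114 to 0.0076 for URA1 and from -0.053 to 0.029 for URA6 in BY4743, from -0.036 to 0.058 for URA6 and from -0.0016 to 0.078 for TRP4 in BC187, and from -1.72 to 0.27 for URA8, from -4.79 to 0.061 for PML39 and from -0.52 to 0.43 for TRP4 in NCYC3290. Strain differences between BC187 and BY4743 numbered 3 under TMM, which added URA1, and with a library left out they stayed at 2 genes and at 2 to 4 over the 4 strains.

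The data gave no sign that replicate numbers pair the samples, though correlations within such small groups cannot exclude a pairing. Deviations of same-numbered libraries correlated between -0.424 and 0.116 over 12 pairs, with 2 over 0.1, and 2 libraries of generation 0 correlated best with their own number. With the replicate block the fall of URA4 in NCYC3290 had an FDR of 0.11, and URA6 was lost over the 4 strains (FDR 0.091).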
